A study of Mus musculus with 9 samples.

Results

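The motile cilia genes are a named list of 36 genes that encode the moving cilium of airway epithelium, the proteins that assemble it and the transcription factors that switch it on. They were looked up by name on one-color microarrays of mouse lung RNA, and 32 of the 36 were found among the 19751 genes that could be named on the array. Dnah12, Ccdc40, Lrrc23 and Cdhr4 were not found through the gene table and were not analysed here. Each gene was represented by its brightest probe, judged by the mean log2 processed signal over the 9 arrays after quantile normalization. All 9 arrays came from lung tissue of male C57BL/6 mice, with 4 arrays titled Control and 5 titled Irradiated. An age of 10 weeks is given for all 9. The study took irradiated lungs weeks to months after the dose, so the ages at sampling may differ and are not given. Irradiated mice received one dose to the left lung under zoletil and rompun anesthesia. The study used a focal high dose with separate sampling of the neighboring tissue, and a lower dose over most of the left lung, but the labels do not say which dose, which region or which week each Irradiated array stands for. These arrays may thus hold more than one treatment, and a spread among them may not be only a replicate error. Per the study's methods, RNA from repeat experiments was pooled before labeling, so that p-values measure the spread between these arrays and not between single mice.

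Motile cilia cover the multiciliated cells of the conducting airways and beat together to carry mucus out of the lung. Each cilium is built on an axoneme, a ring of microtubule doublets around a central pair, in which dynein arms slide neighboring doublets against each other while radial spokes and the central pair regulate the stroke. Multicilin, encoded by Mcidas, starts the multiciliated program in a precursor cell, and FOXJ1 together with the RFX factors turns on the structural genes, the RFX factors through a motif called the X-box.

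Because RFX factors bind near the starts of many of these genes, the RefSeq promoter windows (assembly GRCm38.p6, 250 bases before to 50 bases after each gene start) were searched on both strands. A window was given for 27 of the 32 genes. The half-site GTTGCC was present in 15 of these 27 genes (55.6%), against 14.1% of all 27025 genes with a window. The longer X-box, an imperfect inverted repeat that can overlap the half-site, was present in 6 of 27 (22.2%), namely Spag16, Enkur, Pifo, Hydin, Zmynd10 and Tekt4, against 2.49% of all genes. The forkhead motif GTAAACA was present in 2 of 27 (7.41%), Ak7 and Sntn, against 4.05%. A match is a description of the sequence and not of binding. The 250 bases before the start are shown for 3 structural genes of the axoneme with a match to an RFX motif and an unadjusted p under 0.05 between the groups. Mcidas, the regulator with such a p, also holds a half-site, at position −195. Tekt2 (first of its starts; chr4:126325689-126325938, minus strand) holds half-sites that begin at positions −96 and −22 relative to the start. Hydin (chr8:110266727-110266976, plus strand) holds an X-box that begins at position −21, and Tekt4 (chr17:25471340-25471589, plus strand) holds one at position −160. Tekt4 also holds an X-box at position 1 and a half-site at position 9, beyond the bases shown. Capitals mark the half-site or the X-box, and a match on the opposite strand appears as its reverse complement.
Tekt2: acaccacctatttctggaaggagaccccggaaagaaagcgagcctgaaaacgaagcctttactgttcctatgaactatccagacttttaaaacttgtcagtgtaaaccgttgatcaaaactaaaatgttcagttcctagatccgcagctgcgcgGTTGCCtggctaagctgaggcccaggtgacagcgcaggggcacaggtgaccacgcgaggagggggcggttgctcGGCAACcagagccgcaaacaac
Hydin: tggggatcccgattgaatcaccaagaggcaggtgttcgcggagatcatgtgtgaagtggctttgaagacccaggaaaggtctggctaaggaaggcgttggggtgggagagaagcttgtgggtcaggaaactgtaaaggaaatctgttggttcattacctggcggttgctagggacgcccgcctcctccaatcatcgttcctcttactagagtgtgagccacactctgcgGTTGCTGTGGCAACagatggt
Tekt4: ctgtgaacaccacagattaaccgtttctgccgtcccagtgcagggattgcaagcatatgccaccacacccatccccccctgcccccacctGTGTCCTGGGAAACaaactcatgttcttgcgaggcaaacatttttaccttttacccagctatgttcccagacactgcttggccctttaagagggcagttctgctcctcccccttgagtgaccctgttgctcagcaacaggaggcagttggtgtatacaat

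Between 72.8% and 89.1% of the gene spots per array were well above background, and no spot was saturated. Precision is limited by having only 9 arrays. Of the 32 genes, 31 were detected well above background throughout, as were 15255 of all 19698 genes tested. The remaining one, Dnah9, was so on 4 control and 4 irradiated arrays. Markers of lung cells were counted in the same way: all 10 type II alveolar genes and 17 of 18 airway secretory genes were well above background on every array. So were 11 of 12 cardiac muscle genes, and these counts do not identify the tissue. Muscle genes moved with single arrays. The mean of 12 cardiac muscle genes on Irradiated 1 was −4.98 on the log2 scale relative to the control mean, against −0.54 to 0.31 on the other irradiated arrays, and the mean of 12 skeletal muscle genes on Control 3 was 3.86 against −1.56 to −1 on the other controls. The part of these arrays in the results below was not tested beyond leaving each of them out.

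None of the motile cilia genes passed the test between the groups when arrays were taken as unpaired. With arrays paired by their scans (scan pairs) as a random block, 5 passed, where 7.38% of all probes and 9.45% of all genes did. With these pairs as a fixed block 2 passed, where 2.81% of all probes did, as given after the single genes. With limma without a block and Benjamini-Hochberg adjustment over 39303 probes, 0 of the 32 genes had an adjusted p under 0.05, where 0.333% of all probes and 0.416% of all genes by their brightest probe were called. The smallest adjusted p among the 32 was 0.23, for Tekt2. Without adjustment, 4 genes had a p under 0.05 (Mcidas, Hydin, Tekt2 and Tekt4), a share close to the 12.3% of all 19698 genes tested (9.94% of all probes). Whether the Mcidas probe reported Mcidas RNA was not tested, as given below. The irradiated mean was below the control mean for 26 of the 32 genes, where 48.1% of all genes were lower. The differences in log2 intensity ranged from −0.57 to 0.31 with a median of −0.19, beside a median of 0.008 over all genes. With the brightest probe, the 4 control and the 5 irradiated arrays overlapped in all 32 genes, where 5.14% of all genes did not overlap.

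The intervals give a range for the mean difference of each gene by itself, averaged over the irradiated arrays. Since these arrays may mix treatments, the intervals do not bound the difference under any single treatment. For 31 of the 32 genes the 95% interval of the difference lay within 2-fold in both directions, against 78.8% of all genes. The exception was Dnah9, whose upper bound was 1.38 on the log2 scale. All 32 lower bounds were above −1, the lowest being −0.95 for Hydin. In 4 genes the interval lay wholly below 0 and in none wholly above 0. Since the arrays measured whole tissue, fewer ciliated cells and less RNA per ciliated cell cannot be told apart.

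**Figure D1:**
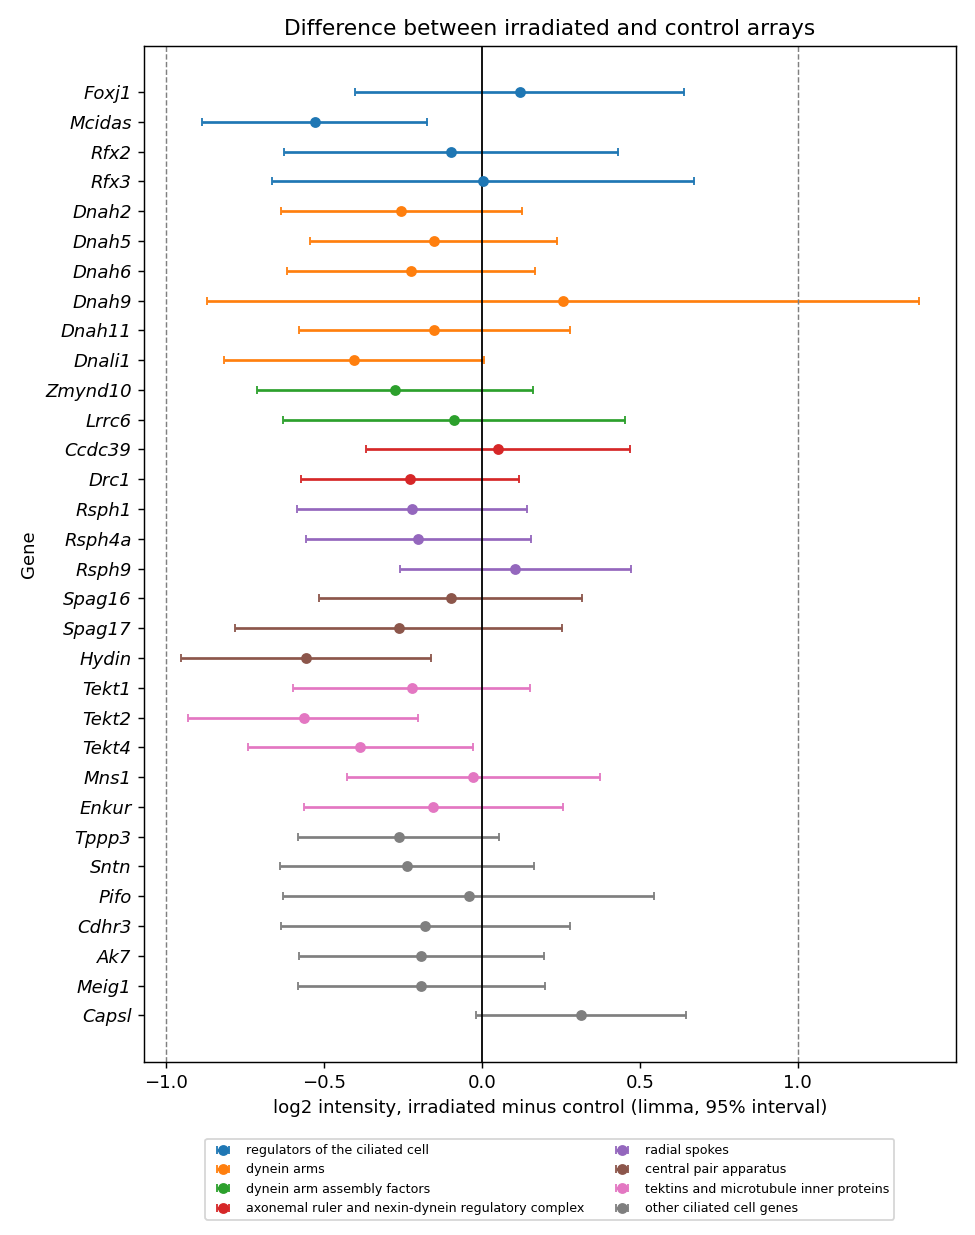
Difference in mean log2 intensity between the 5 irradiated and the 4 control arrays for each of the 32 motile cilia genes, with the limma 95% interval. Colors mark the role of the gene and dashed lines mark 2-fold. The intervals of Mcidas, Hydin, Tekt2 and Tekt4 lie below 0, and only that of Dnah9 crosses a 2-fold line.

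The motile cilia genes moved together from array to array within each group, and this movement was as large as the difference between the groups. Relative to the control mean, the mean over the 32 genes was −0.25 on Control 1, 0.34 on Control 2, −0.22 on Control 3 and 0.14 on Control 4. It was −0.22 on Irradiated 1, −0.39 on Irradiated 2, −0.02 on Irradiated 3, −0.27 on Irradiated 4 and 0.06 on Irradiated 5. The irradiated mean of −0.17 was smaller in size than the control SD of 0.28 (n = 4), and 3 of the 5 irradiated arrays lay inside the range of the controls. Within the 4 scan pairs, which remove the movement that paired arrays share, the median of the 32 genes was below 0 in each, at −0.42 to −0.07. Control 2 was the highest control in 25 of the 32 genes, against 30.4% of all genes, and Control 1 was the lowest in 21, against 22.1% of all genes. Among the irradiated arrays, Irradiated 5 was highest in 18 genes (18.0% of all genes), and Irradiated 2 and Irradiated 4 were lowest in 14 and 12 genes (19.5% and 27.8% of all genes). Without Control 2 the median difference was −0.07 and 20 of 32 genes were lower. The differences of 23 genes moved by over 1.5 times without that array, 19 of them toward 0 or across it, among them Dnah2 (−0.11), Dnah6 (−0.07), Dnah5 (−0.03), Drc1 (−0.11) and Rsph1 (−0.08). Leaving out any other single array moved 7 to 13 genes by that much. Over the 9 fits that left out one array each, the median ranged from −0.29 to −0.07. The pattern over the 9 arrays was most alike, by Pearson correlation, between Spag17 and Ak7 (0.99), Drc1 and Zmynd10 (0.99) and Drc1 and Dnah2 (0.99), and in each of these pairs one gene was the closest to the other among all genes. By contrast, the closest motile cilia gene ranked 1377 among all genes for Mcidas, 1175 for Rfx3, 1127 for Tekt2, 611 for Dnah9, 518 for Tppp3 and 412 for Capsl. These correlations share the 9 arrays and their labeling, and are a description. For single genes the control SD ranged from 0.12 to 0.69 (median 0.36).

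**Figure D2:**
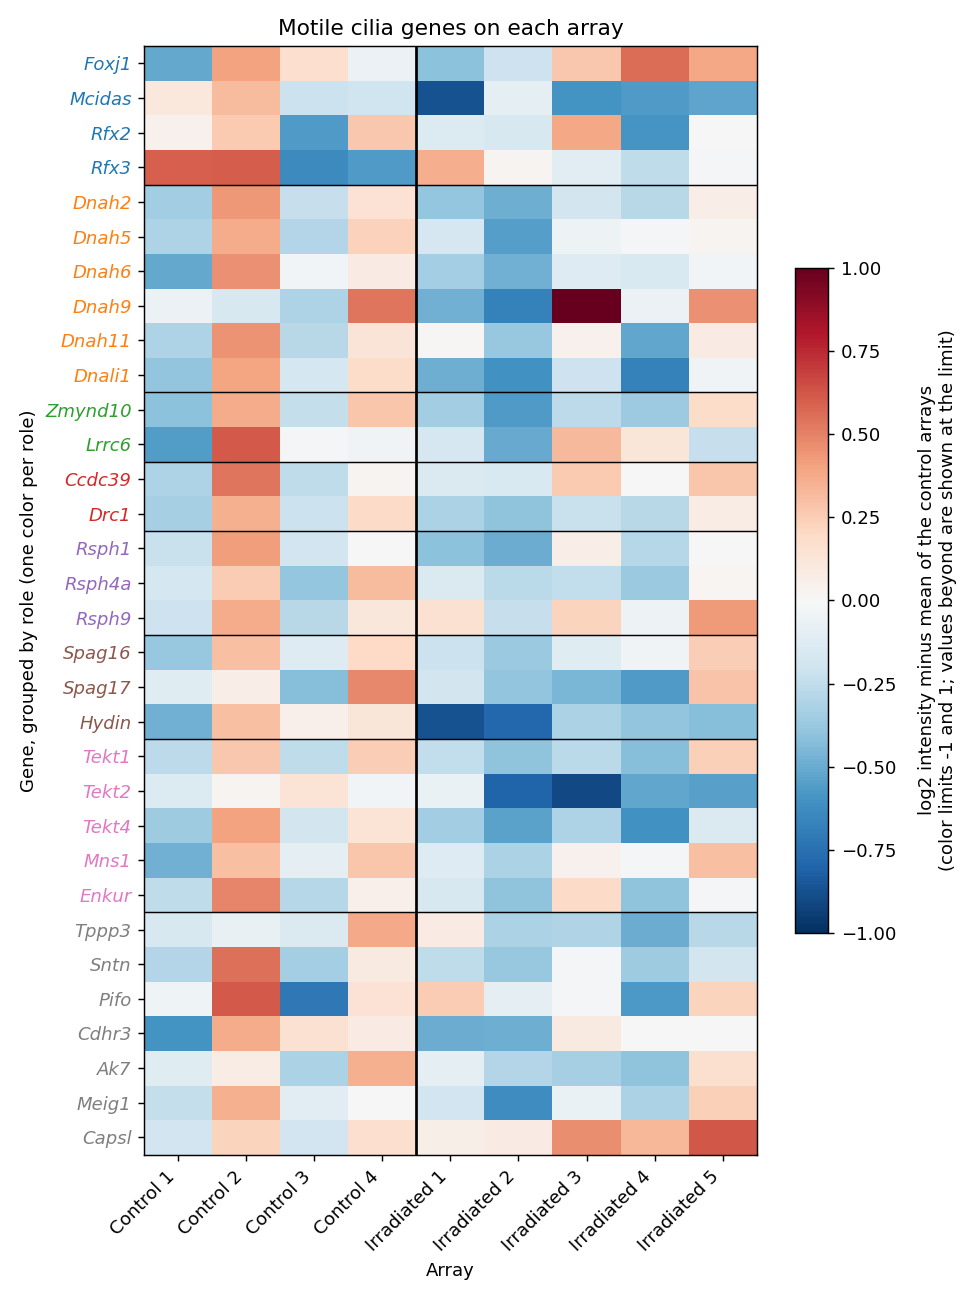
Log2 intensity of each of the 32 motile cilia genes on each array minus the mean of the 4 control arrays, with genes grouped by role (one color per role) and color limits at −1 and 1. Most genes are high on Control 2 and low on Control 1 and Irradiated 2, whereas Tekt2, Mcidas and Hydin are low on most irradiated arrays.

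Among the regulators, Mcidas had an interval below 0, and Foxj1 did not. Mcidas had log2 intensities of 15.92, 16.13, 15.60 and 15.62 on Control 1 to Control 4, and of 14.95, 15.72, 15.22, 15.25 and 15.29 on Irradiated 1 to Irradiated 5. On 4 of the 5 irradiated arrays the value lay below every control value, and Irradiated 2 lay between the controls. The difference was −0.53 (SE 0.16, limma adjusted p = 0.25, exact two-sided permutation p = 0.0318), with a 95% interval of −0.89 to −0.17. With the scan pairs the limma adjusted p was 0.038 (random block) and 0.134 (fixed block).

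Over the 9 arrays the Mcidas probe followed Itgam, which is no motile cilia gene, more closely than any of the other 31 (highest Pearson correlation with one of these 0.54, with Hydin, beside 0.99 with Itgam). Relative to its control mean it was at 0.10, 0.31, −0.22 and −0.20 on the controls and at −0.86, −0.10, −0.59, −0.57 and −0.53 on the irradiated arrays. Itgam, an integrin of myeloid cells, was at 0.14, 0.31, −0.22 and −0.24 and at −0.79, −0.04, −0.58, −0.60 and −0.56, at most 0.072 away, and was the closest of 19657 genes. The genes next in closeness, Snap25, Idua, Hexim2 and Fgf23, were at most 0.091 to 0.154 away, while the closest other motile cilia gene by this measure, Dnali1, was up to 0.51 away and ranked 240. These genes were looked up after the values of Mcidas had been seen. The control mean of the Mcidas probe, 15.815, was the highest of the 32 genes, beside 15.715 for Itgam. Whether this probe reported Mcidas RNA was not tested. Its values are given as those of the probe, here and in every count that includes it.

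Foxj1, the forkhead factor that drives the motile cilium program, had log2 intensities of 12.96, 13.87, 13.64 and 13.41 on the controls and of 13.06, 13.26, 13.74, 14.03 and 13.86 on the irradiated arrays. The groups overlapped over nearly their whole range. The difference was 0.12 (SE 0.23, 95% interval −0.40 to 0.64, adjusted p = 0.942). Rfx2 and Rfx3, which bind the X-box, differed by −0.10 (SE 0.24) and 0.002 (SE 0.30). Rfx3 was measured by 3 probes, and the others gave −0.20 and −0.003. Its brightest probe read 7.98 and 7.99 on Control 1 and Control 2 but 6.75 and 6.82 on Control 3 and Control 4, the widest control SD of the 32 genes (0.69). The sign of its difference turned under 7 other ways of processing.

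The dynein arms, the motors of the axoneme, were represented by 6 genes with a median difference of −0.19. Of the outer arm heavy chains, Dnah5 read 11.71, 12.39, 11.73 and 12.25 on the controls and 11.85, 11.47, 11.97, 12.01 and 12.05 on the irradiated arrays. All irradiated arrays but Irradiated 2 lay within the control range, and the difference was −0.15 (SE 0.18, 95% interval −0.54 to 0.24, adjusted p = 0.866). Dnah11, another outer arm heavy chain, differed by −0.15 (SE 0.19, adjusted p = 0.887). Dnah9, the remaining outer arm heavy chain of the list, had the lowest control mean of the 32 genes (5.39). It was well above background on 4 control and 4 irradiated arrays. The probe read 5.08 to 5.93 on the controls and 4.72 to 5.85 on 4 irradiated arrays, but 7.43 on Irradiated 3. Its difference of 0.26 had an SE of 0.51 and an interval of −0.87 to 1.38, and without Irradiated 3 the difference was −0.19.

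The inner arm genes were lower in mean, but none passed the test. Dnali1, a light intermediate chain, read 12.55, 13.34, 12.77 and 13.13 on the controls and 12.46, 12.34, 12.74, 12.27 and 12.91 on the irradiated arrays. On 3 of the 5 irradiated arrays the value lay below every control. The difference was −0.41 (SE 0.19, adjusted p = 0.514) with an interval of −0.82 to 0.01. The heavy chains Dnah2 and Dnah6 differed by −0.26 (SE 0.17) and −0.23 (SE 0.18). Zmynd10 and Lrrc6, which help to assemble dynein arms in the cytoplasm, differed by −0.28 (SE 0.20) and −0.09 (SE 0.24), and their irradiated values lay within the control range except for Irradiated 2 in Zmynd10.

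The genes that set the spacing of the axoneme and relay signals to the dynein arms showed small differences in both directions. Ccdc39, a molecular ruler of the doublet repeat, differed by 0.05 (SE 0.19), a value whose sign depended on the scaling, at −0.01 with scaling to the 75th percentile. Drc1, a subunit of the nexin-dynein regulatory complex that links the doublets, differed by −0.23 (SE 0.16). Of the radial spoke head genes, Rsph1 and Rsph4a differed by −0.22 (SE 0.16) and −0.20 (SE 0.16), and Rsph9 by 0.11 (SE 0.16). A second probe of Rsph4a did not overlap between the groups, at 10.15 to 10.41 on the controls and 9.58 to 10.10 on the irradiated arrays, with a difference of −0.38 (SE 0.13, limma adjusted p = 0.298). The adjusted p-values of Ccdc39, Drc1 and the brightest spoke head probes were between 0.718 and 0.98.

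The central pair apparatus held one of the larger differences. Hydin, a central pair protein whose loss impairs ciliary beating and causes hydrocephalus in mice, read 10.75, 11.53, 11.28 and 11.35 on the controls and 10.36, 10.44, 10.91, 10.83 and 10.80 on the irradiated arrays. Irradiated 1 and Irradiated 2 lay below every control value, and the other irradiated arrays lay between Control 1 and Control 3. The difference was −0.56 (SE 0.18, limma adjusted p = 0.279, exact two-sided permutation p = 0.0476), with an interval of −0.95 to −0.16. Hydin passed the limma test with the scan pairs as either block (adjusted p = 0.0194 and 0.0452). The irradiated mean was thus 0.679 times the control mean.

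A second probe of Hydin gave a similar difference with no overlap between the groups. It read 8.17 to 8.70 on the controls and 7.63 to 8.16 on the irradiated arrays. Its difference was −0.51 (SE 0.16, limma adjusted p = 0.276). The other central pair genes, Spag16 and Spag17, differed by −0.10 (SE 0.19) and −0.26 (SE 0.23). The probes of Spag16 disagreed in sign, since the second one differed by 0.55 (SE 0.36).

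The tektins are filament proteins that run along the inside of the doublets, and the 3 members of the list (Tekt1, Tekt2 and Tekt4) had lower means in the irradiated arrays. Tekt2 read 10.36, 10.53, 10.64 and 10.47 on the controls, the tightest control group of the 32 genes (SD 0.12), and 10.43, 9.70, 9.60, 9.98 and 9.96 on the irradiated arrays. All irradiated arrays but Irradiated 1 lay below every control, and that array lay among the controls. The difference was −0.57 (SE 0.16, limma adjusted p = 0.23, exact two-sided permutation p = 0.0238), with an interval of −0.93 to −0.20. Tekt2 also passed the limma test with the scan pairs as either block (adjusted p = 0.00952 and 0.035). Without Irradiated 1, the array with the low cardiac and secretory signal, the difference was −0.68 with an adjusted p of 0.0388 by limma. Tekt2 was the only one of the 32 genes to pass the threshold in any of the fits that left out one array. In the fit without Irradiated 1, 1.23% of all probes were called in either direction and 0.489% of all probes were called lower.

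Tekt4 read 12.25, 13.01, 12.42 and 12.74 on the controls and 12.26, 12.07, 12.30, 12.00 and 12.46 on the irradiated arrays. Irradiated 2 and Irradiated 4 lay below every control. The difference was −0.39 (SE 0.16, limma adjusted p = 0.448, exact two-sided permutation p = 0.0794). With the scan pairs the limma adjusted p of Tekt4 was 0.0482 (random block) and 0.107 (fixed block). Tekt1 differed by −0.22 (SE 0.17), with Irradiated 5 at 13.45 and the other irradiated arrays between 12.79 and 12.97. Mns1 and Enkur, proteins found inside the doublet microtubules, differed by −0.03 (SE 0.18) and −0.15 (SE 0.18).

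Among the other genes of the ciliated cell, Capsl had the largest difference toward higher values. It read 11.46, 11.88, 11.46 and 11.82 on the controls and 11.71, 11.74, 12.12, 11.99 and 12.28 on the irradiated arrays. Irradiated 3, Irradiated 4 and Irradiated 5 lay above every control. The difference was 0.31 (SE 0.15, adjusted p = 0.54), with an interval of −0.02 to 0.65. With the scan pairs the limma adjusted p of Capsl was 0.0455 (random block) and 0.0622 (fixed block).

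Tppp3, a tubulin-binding protein, read 14.47, 14.55, 14.48 and 15.01 on the controls and 14.71, 14.31, 14.33, 14.13 and 14.35 on the irradiated arrays. All irradiated arrays but Irradiated 1 lay below every control, and the difference was −0.26 (SE 0.14, adjusted p = 0.605). Sntn, which encodes sentan at the ciliary tip, differed by −0.24 (SE 0.18), and Cdhr3, a cadherin of ciliated cells, by −0.18 (SE 0.21). Ak7, an adenylate kinase, differed by −0.19 (SE 0.17). Meig1 and Pifo differed by −0.19 (SE 0.18) and −0.04 (SE 0.26). By role, the median differences were −0.05 for the 4 regulators, −0.26 for the 3 central pair genes, −0.22 for the 5 tektins and microtubule inner proteins, and −0.19 for the 7 other genes. Without Control 2 these medians were 0.10, −0.24, −0.14 and −0.06, and that of the 6 dynein arm genes was −0.05. Over the fits that left out one array each, the median ranged from −0.25 to 0.10 for the regulators and from −0.41 to −0.10 for the central pair genes.

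Arrays that lay one array width apart on the scanner image, within a narrow range, formed 4 pairs of one control and one irradiated array, with Irradiated 1 left over. Local background was similar within the pairs but was not part of the rule that formed them. The files name no slide, so these pairs were inferred from the scans after the data had been seen. Their arrays deviated together from the group means (correlation over all probes 0.20 to 0.45), so the comparison was repeated within them. Irradiated values were lower in 24 of 32 genes in the pair of Control 1 and Irradiated 2, in 29 in that of Control 2 and Irradiated 3, in 20 in that of Control 3 and Irradiated 4, and in 22 in that of Control 4 and Irradiated 5. The shares of all genes that were lower in these pairs were 53.6%, 46.2%, 51.6% and 48.7%. The median differences of the 32 genes were −0.15, −0.42, −0.07 and −0.09. Lower values in all 4 pairs were seen in 15 of the 32 genes, where 17.3% of all genes were lower in all 4. Capsl was the only one of the 32 that was higher in all 4, where 17.9% of all genes were.

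With these pairs as a random block in limma, 5 of the 32 genes passed an adjusted p of 0.05, while 7.38% of all probes and 9.45% of all genes did so. Of these, 4 fell, where 3.28% of all probes and 3.8% of all genes were called lower. Tekt2 fell by 0.64, Hydin by 0.51, the Mcidas probe by 0.48 and Tekt4 by 0.39. The Mcidas probe followed Itgam closely, and whether it reported Mcidas RNA was not tested. Capsl rose by 0.35, where 4.09% of all probes and 5.65% of all genes were called higher.

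With the scan pairs as a fixed block, which leaves Irradiated 1 without a partner, 2 genes passed, where 1.26% of all probes were called lower, 1.55% higher and 2.81% in either direction. The share of all genes by their brightest probe is not given for this block. With the random block that share was higher than the share of probes (9.45% against 7.38%). Tekt2 fell by 0.69 and Hydin fell by 0.48. Within single pairs, Tekt2 differed by −0.92 to −0.51 and Hydin by −0.62 to −0.31. Mcidas differed by −0.90 to −0.20, Tekt4 by −0.71 to −0.18 and Capsl by 0.24 to 0.53. Foxj1 was lower in 1 of the 4 pairs, at −0.13 to 0.45.

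**Figure D3:**
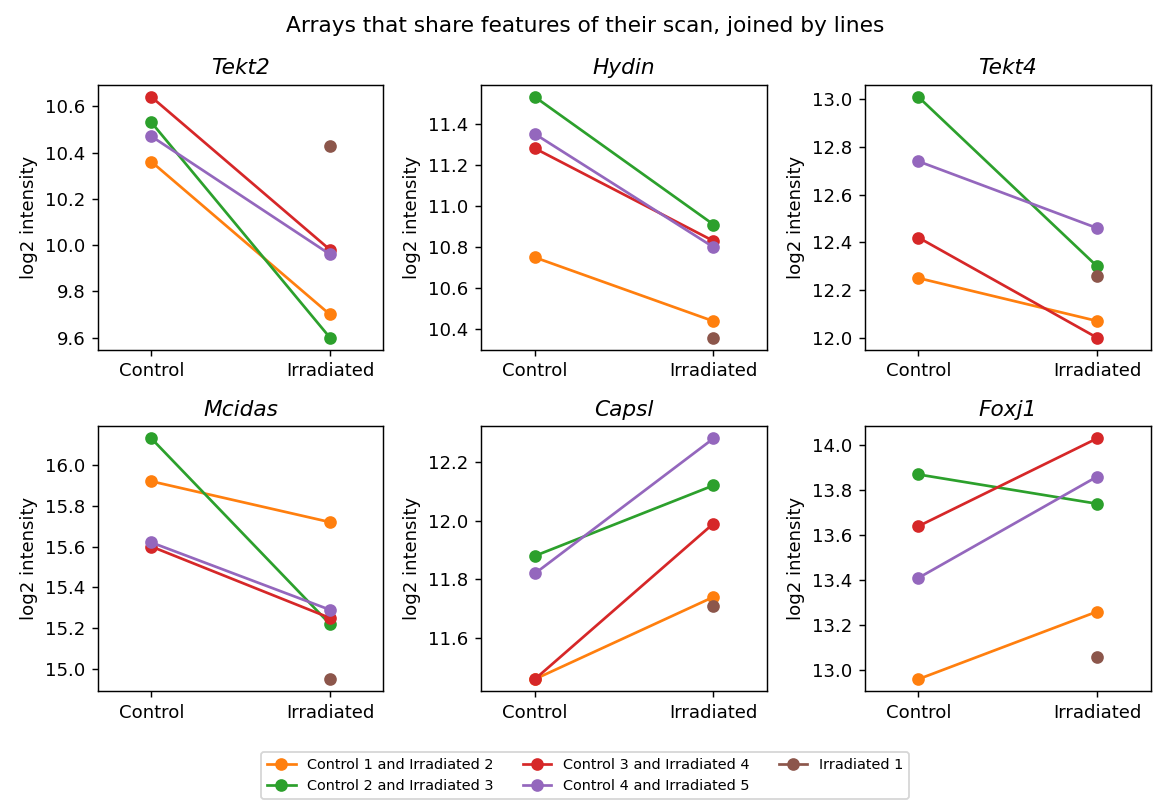
Log2 intensity of 6 motile cilia genes on the control and irradiated arrays, with lines between arrays that share features of their scan and a single point for Irradiated 1. Tekt2, Hydin, Tekt4 and Mcidas are lower and Capsl is higher on the irradiated array of every pair, while Foxj1 is higher in 3 of 4.

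Other genes of the cilium were counted beside the list. Of 60 further motile cilia genes that were tested, 1 passed the threshold and fell (0.152% of all genes), 0 passed and rose (0.264% of all genes), 42 had a lower mean (48.1% of all genes), and the median difference was −0.13. Without Control 2 the median was −0.014 and 31 of the 60 had a lower mean. The gene that passed was Dnah8, an axonemal dynein heavy chain best known from the sperm tail. It read 11.21, 10.97, 11.33 and 11.04 on the controls and 10.59, 10.19, 10.60, 10.33 and 10.32 on the irradiated arrays, with no overlap. Dnah8 fell by 0.73 (SE 0.12, limma adjusted p = 0.0455, exact two-sided permutation p = 0.00794, the smallest that 4 against 5 arrays allow). Its call was kept in 1 of the 9 fits that left out one array, that without Irradiated 1, and adjusted p-values reached 0.145 in the others. The brightest of these 60 genes were Dynlrb2, Fam183b and Rsph3b, which differed by −0.28, −0.16 and −0.18.

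Genes upstream and outside the axoneme were compared in the same way. By limma, 12.3% of all genes had an unadjusted p under 0.05, and with the random block of scan pairs 3.8% of all genes were called lower. Of 17 regulators of multiciliated cell formation other than the members, 0 passed the threshold in limma, with 3 at an unadjusted p under 0.05 and a median difference of −0.21, which was −0.07 without Control 2. With the random block of scan pairs 2 of them were called lower, Myb (limma adjusted p = 0.0284) and Trp73 (limma adjusted p = 0.0481). The brightest of them, Cep63, Pcm1 and Myb, differed by −0.16 (SE 0.12), −0.21 (SE 0.10) and −0.55 (SE 0.20). Of 28 intraflagellar transport genes, which serve immotile as well as motile cilia, 0 passed in limma, with 0 at an unadjusted p under 0.05 and 1 called lower with the random block of scan pairs. Their median difference was −0.04 (−0.10 to 0.008 with one array left out), and all 28 intervals lay within 2-fold.

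Markers of the neighboring airway cells were counted in the same way. Of 18 airway secretory genes, 2 fell (0.152% of all genes) and 0 rose, 16 had a lower mean, and the median difference was −0.68. Without Irradiated 1 the median was −0.42, 15 had a lower mean and 4 were called (1.69% of all genes), and with the random block of scan pairs 5 of the 18 were called lower (3.8% of all genes). Lypd2 fell by 1.88 (SE 0.17, limma adjusted p = 0.00664) and was called in all 9 fits that left out one array. Chad fell by 1.72 (SE 0.24, limma adjusted p = 0.0312) and was called in 2 of those 9 fits. The brightest secretory genes, Scgb1a1 of the club cell, Cbr2 and Cyp2f2, differed by −0.03 (SE 0.07), −0.35 (SE 0.13) and −0.56 (SE 0.12). Scgb1a1 read 19.08 to 19.19, near the top of the scale that quantile normalization makes alike between arrays, so its small difference says little. The mean of the secretory list was −2.03 on Irradiated 1 and −0.68 to −0.34 on the other irradiated arrays, whereas the motile cilia genes on Irradiated 1 were at −0.22 and within the range of the others. Of 8 airway basal cell genes, 0 passed in limma, with 3 at an unadjusted p under 0.05 (12.3% of all genes) and 2 called lower with the random block. Their median difference was −0.64, and their means were −0.69 to 0.75 on the controls and −1.64 to −0.53 on the irradiated arrays. The difference between these lists and the motile cilia genes was not tested, and neither was the part of a changed number of airway cells in the values of the cilia genes.

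**Figure D4:**
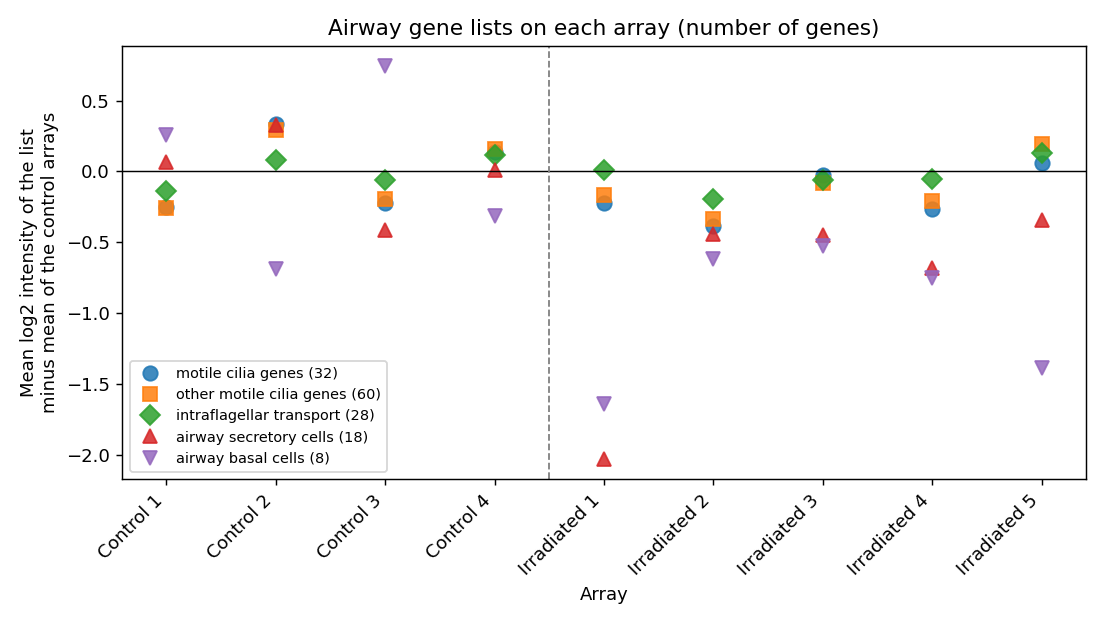
Mean log2 intensity of 5 gene lists on each array minus the mean of the 4 control arrays, with the number of genes in each list in the legend. The motile cilia genes and the 60 further cilia genes follow each other from array to array, while the secretory list is at −2.03 on Irradiated 1, where the motile cilia genes are at −0.22.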

How the data were processed

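The authors deposited, for each of 9 one-color Agilent arrays, the Feature Extraction output as intensity values not normalized between arrays, and a table of intensity values they had normalized by quantiles. Annotation of the probes by the authors was not used; accessions in the array files were matched to a RefSeq table (GRCm38.p6, names only), which named 26055 of 39429 probes.

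Control spots and outlier spots were removed. Probes with a signal over 1.4 times local background on at least 4 arrays were kept (39303), log2 values were then quantile normalized, and spots of a probe were averaged. The brightest probe of each gene was used. For 88 probes lacking a value on some array, the fit used the arrays that remained. Groups were taken from the array titles and compared with limma 3.58.1 (R 4.3.3), with an intensity trend and no covariates, using Benjamini-Hochberg adjustment over all kept probes at 0.05. The pipeline was tested on simulated data. Exact two-sided permutation tests of the group means were run for single genes. Replicate numbers did not pair the samples (correlations of −0.17 to 0.06).

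Alternatives were normexp correction (offset 50), 75th percentile scaling, the filter on all 9 arrays or none, the authors' normalized table, no trend, array weights, a replicate block, averaging all probes of a gene, each array left out and, chosen after seeing the data, scan pairs as a block. Every member was named. Of the comparison lists, the genes past the threshold in limma on all 9 arrays without a block were named, and for some lists the 3 brightest. Some but not all genes called with the random block of scan pairs were also named. Lists covered further motile cilia genes, multiciliogenesis regulators, intraflagellar transport, secretory and basal airway cells, epithelium, type I and type II alveolar cells, endothelium, leukocytes, and cardiac and skeletal muscle. The members and all lists were chosen with earlier results of these data known.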

Additional observations from a re-analysis of the deposited data

Results flagged for a closer look

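In 6 of 106 groups looked at, one array stood apart from the rest of its group by Dixon's criterion, which chance alone meets in about 1 group in 20. Tekt1 was highest on Irradiated 5 at 13.45, with the other irradiated arrays at 12.79 to 12.97. Tppp3 was highest on Control 4 at 15.01, with the other controls at 14.47 to 14.55. The mean of the multiciliogenesis regulators was highest on Control 2 at 0.28, with the other controls at −0.12 to −0.08. The airway secretory list was lowest on Irradiated 1 at −2.03, with the other irradiated arrays at −0.68 to −0.34. The cardiac muscle list was lowest on Irradiated 1 at −4.98, with the others at −0.54 to 0.31. The skeletal muscle list was highest on Control 3 at 3.86, with the other controls at −1.56 to −1. The part of these arrays in the results on cilia genes was not tested beyond leaving each array out.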

How the results depend on the processing

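Medians over the 32 genes were −0.25 to −0.15 under the 9 other ways of processing that kept all arrays and used no scan pairs. The absence of calls among the 32 genes was the same under all of these. It was not so with scan pairs as a fixed block (2 genes called) or a random block (5 genes), nor in every fit that left out one array (0 to 1 gene). The count over all probes, 131, became 197 with the background filter on all 9 arrays, 44 with the authors' table, 44 without an intensity trend, 1105 with the fixed and 2899 with the random scan block, and 5 (without Control 3) to 483 (without Irradiated 1) when one array was left out. The cause was not tested.

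With the replicate number as a replicate block, 1 probe of all was called (3264 at an unadjusted p under 0.05) and 0 of the 32 genes (5 at an unadjusted p under 0.05), with a median of −0.25.

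In the further motile cilia genes, 1 call became 0 with the authors' table, without the trend, with the replicate block and with the mean of all probes, 2 with the fixed and 3 with the random scan block, and 0 to 1 when one array was left out. In the secretory genes, 2 calls became 1 with the authors' table, 1 without the trend, 0 with the replicate block, 5 with the random block and 1 to 4 when one array was left out. In the basal genes, 0 became 2 with the random block. Over all genes, 0.416% were called without a block and 9.45% with the random block. With the fixed block 2.81% of all probes were called.

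Signs turned only for differences that had not passed the test. Rfx3 was −0.0011 with normexp, −0.17 with 75th percentile scaling, −0.016 with the authors' table, −0.0017 with array weights, −0.067 with the mean of its probes, and −0.089 and −0.053 with the fixed and random scan block. Ccdc39 was −0.0084 with 75th percentile scaling, −0.019 with the authors' table and −0.0042 with the replicate block. Mns1 was 0.013 with array weights, and Spag16 was 0.22 with the mean of its probes. When one array was left out, ranges that crossed 0 were −0.052 to 0.25 for Foxj1, −0.29 to 0.025 for Rfx2, −0.21 to 0.20 for Rfx3, −0.19 to 0.49 for Dnah9, −0.25 to 0.00033 for Dnah11, −0.27 to 0.12 for Lrrc6, −0.051 to 0.23 for Ccdc39, −0.23 to 0.0019 for Spag16, −0.19 to 0.073 for Mns1, −0.25 to 0.0074 for Enkur and −0.28 to 0.16 for Pifo.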

Other observations

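Other cells of the lung were compared through lists of their markers. Of 9 type I alveolar genes, 8 had a higher mean in the irradiated arrays, with a median difference of 0.19, and 0 passed the limma test (2 at an unadjusted p under 0.05). With the random block of scan pairs 1 was called higher, Pdpn (limma adjusted p = 0.00194). The brightest of them, Emp2, Gprc5a and Hopx, differed by 0.20, 0.18 and 0.08. The 10 type II alveolar genes had a median of −0.05, and Sftpc, Sftpd and Sftpb of the surfactant differed by 0.007, 0.27 and −0.19. Sftpc read 19.36 or 19.43 on every array, at the top of the scale that quantile normalization makes alike between arrays. Its difference could thus hardly depart from 0 and is not informative. In the type II list 0 genes passed in limma (1 at an unadjusted p under 0.05), and 2 were called lower with the random block, Slc34a2 (limma adjusted p = 0.0266) and Abca3 (limma adjusted p = 0.0433). The medians were 0.12 for 16 general epithelial genes, −0.16 for 12 endothelial genes and −0.15 for 14 leukocyte genes, with 0 calls by limma in each list (5, 1 and 4 genes at an unadjusted p under 0.05). Without Control 1, 1 leukocyte gene was called, where 46 of 39303 probes were. Without Irradiated 1, 1 leukocyte and 1 type I alveolar gene were called, where 1.69% of all genes were. With the random block, by which 3.28% of all probes were called lower and 4.09% higher, 2 epithelial genes were called higher and 1 lower, 1 endothelial gene was called lower, and 2 leukocyte genes were called higher and 2 lower. With one array left out, the medians ranged from 0.08 to 0.25 for type I, from −0.19 to 0.03 for type II, from 0.03 to 0.17 for epithelial, from −0.30 to −0.03 for endothelial and from −0.25 to −0.05 for leukocyte genes. The 12 cardiac muscle genes had a median of −1.03 and the 12 skeletal muscle genes one of −1.21, with 0 calls in limma with or without the random block (0 and 1 gene at an unadjusted p under 0.05 without it). Both medians rested on 1 array: without Irradiated 1 the cardiac median was −0.18, and without Control 3 the skeletal median was 0.08. Among all genes, 12.3% had an unadjusted p under 0.05.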
